A study of Mus musculus with 6 samples.

Results

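Kinesins are the motor proteins that walk along or take apart microtubules, and most mouse genes for them carry Kif names. They were taken from the deposited gene table by symbol (Kif followed by a number, or Kifc followed by a number, with an optional letter), which gave 41 genes of 29721 listed. The samples were pancreas RNA of 3-month-old Ela-myc mice, which carry a Myc transgene under the elastase promoter, active in enzyme-secreting acinar cells. There were 3 Ela-myc animals with wild-type Parp2 (WT) and 3 Ela-myc animals without PARP2 (PARP2 KO), each library from a different animal. Neither the deleted stretch of Parp2 nor the cells that lack it are named in the labels. The labels also do not say which piece of the organ was taken, and the tissue is called preneoplastic by the name of the deposited data but tumour in the extraction protocol. The comparison asks how loss of the DNA damage response enzyme PARP2 bears on pancreatic tumour development.

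Kinesins divide into motors that work only or mainly in dividing cells and motors that carry cargo. Mitotic kinesins slide the spindle poles apart, push and align chromosomes, trim microtubule ends and build the midzone where the cell cleaves, and most are made only in proliferating cells. Most transport kinesins carry vesicles, endosomes, mitochondria and RNA toward the cell edge, and several are typical of neurons and hormone-secreting cells. By textbook function the 41 genes were put into 13 mitotic kinesins, 15 transport kinesins, 6 kinesins of the cilium or its basal body, and 7 others. This was done with earlier results of these data known. Kif2a, a microtubule depolymerase that non-dividing cells also use, was put among the others. Counts were high enough for a test in 39 genes. Kif6, a ciliary motor, had 6 counts in WT and 12 in KO over all libraries, and Kif28 had 1 and 4.

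The promoters of mitotic kinesins are shown first because most of them hold a short element that the choice of genes did not use. The cell cycle genes homology region (CHR) is bound by the complexes that keep late cell cycle genes off in resting cells and turn them on before mitosis. It was searched as TTTGAA on both strands (TTCAAA on the other) in windows of 300 bases, from 250 before to 50 after each annotated start, taken from RefSeq on GRCm38.p6. Of the 41 genes 32 had a window. Windows whose start lay more than 500 bases from the 5′ end of the gene in GENCODE vM21 were set aside, a limit chosen after the windows were seen: those of Kif14, Kif2c, Kif17 and Kif27, which start inside the gene, and the inner one of 2 for Kif1a. That left 28 genes, among them 10 mitotic and 9 transport kinesins. The 26 bases around the match nearest to the start are printed below for the 9 mitotic kinesins that held one, 5′ to 3′ on the gene's own strand, with the match in capitals.

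Kif11, chr19:37376353-37376378, plus strand: gtctccatttTTCAAAattgaggcgc
Kif15, chr9:122951052-122951077, plus strand: gggcgccaaaTTCAAAtctgcggcca
Kif18b, chr11:102925106-102925131, minus strand: gaccggctagTTTGAAcgcgccgcgc
Kif20b, chr19:34922355-34922380, plus strand: gccgccattgTTTGAAtttgaaaacc
Kif22, chr7:127042422-127042447, minus strand: gccccggtaaTTCAAAagagagaagc
Kif23, chr9:61946782-61946807, minus strand: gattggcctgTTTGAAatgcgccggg
Kif4, chrX:100626074-100626099, plus strand: ctgggatcaaTTTGAAacttggcggt
Kifc1, chr17:33890617-33890642, minus strand: gaggttgaaaTTCAAAagtggcgggt
Kifc5b, chr17:26917110-26917135, plus strand: gaggttgaaaTTCAAAagtgactggt

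The CHR letters were thus in 9 of 10 mitotic windows, against 0 of 9 transport windows, 12.5% of 10902 tested genes with such a window and 15.8% of all 16781 genes with one. Kif18a was the mitotic kinesin without a match. Of the remaining roles, 1 of 5 other kinesins and 0 of 4 cilium kinesins held the letters. The 1 was Kif26b, with the match at position -9 from the start. With the windows set aside included, the letters were in 11 of 12 mitotic and 1 of 10 transport kinesins and in 15.1% of 12487 tested genes. In the 9 mitotic windows the match began within 30 bases of the start, a distance chosen after the positions were seen, against 2.06% of tested genes. Kif20b carried a second match directly behind the first. The windows of Kifc1 and Kifc5b are nearly the same, and the genes are close copies. The NF-Y box, which often lies a short way before a CHR, was searched as CCAAT and on the other strand as ATTGG. It was in 7 of 10 mitotic windows, 3 of 9 transport windows and 39.1% of tested genes. Both motifs together were in 7 of 10 mitotic windows, 0 of 9 transport windows and 5.09% of tested genes. Kif26b held both as well, with the NF-Y box at -73. The Myc E-box CACGTG was in 0 of 10 mitotic windows, 0 of 9 transport windows and 10.3% of tested genes. No base belonged to more than 1 motif, and a match in these letters is a description of the window, not a measured binding site.

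The layout is seen in the last 120 bases before the start of 2 strongly lowered mitotic motors and of a transport motor whose level did not pass the test, with both motifs in capitals. For Kif11 (chr19:37376262-37376381, plus strand) the NF-Y box begins at position -45 and the CHR at -19 from the start. For Kif22 (chr7:127042421-127042540, minus strand) they begin at -54 and -17. Kif3b (chr2:153291296-153291415, plus strand), a subunit of the kinesin-2 motor, holds an NF-Y box at -69 and no CHR.

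Kif11: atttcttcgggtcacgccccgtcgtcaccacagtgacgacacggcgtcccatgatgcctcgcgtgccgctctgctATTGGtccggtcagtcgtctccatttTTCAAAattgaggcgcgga
Kif22: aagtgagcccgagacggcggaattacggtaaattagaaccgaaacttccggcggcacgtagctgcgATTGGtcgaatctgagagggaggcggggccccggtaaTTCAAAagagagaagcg
Kif3b: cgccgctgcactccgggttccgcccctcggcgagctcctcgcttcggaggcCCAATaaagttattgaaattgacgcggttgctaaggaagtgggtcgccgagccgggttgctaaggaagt

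**Figure D1:**
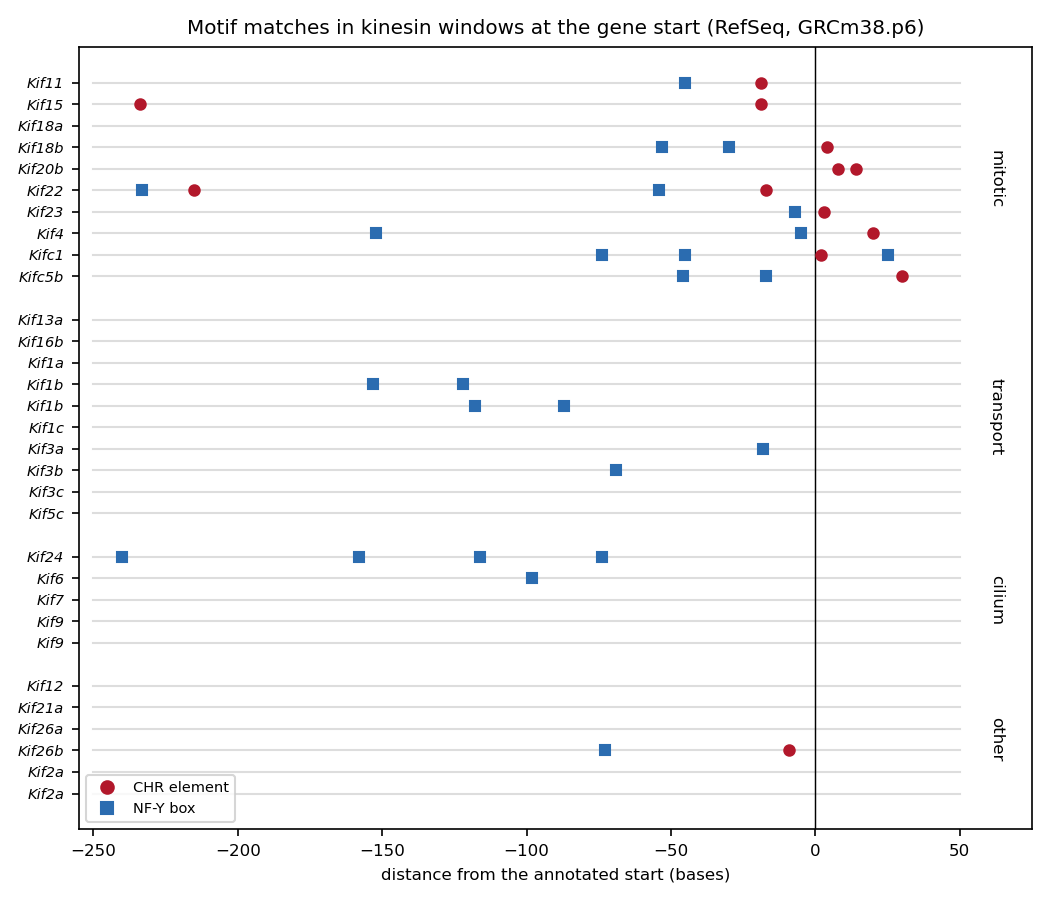
Motif matches in the 31 windows at the gene start of 28 kinesin genes (some genes have 2), by distance from the annotated start in bases; circles are CHR matches and squares NF-Y boxes. A CHR match lies near the start in 9 of 10 mitotic genes, in none of the 9 transport genes and in 1 of 5 others (Kif26b).

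Library totals ran from 28105021 to 32055565 counts. Parp2 itself was lower in every KO library (log2 ratio of KO to WT, or log2 fold change, -1.50, with SE 0.097 and edgeR adjusted p = 0.00201). Acinar marker genes took 23.8%, 25.6% and 20.2% of counts in WT replicates 1, 2 and 3 but 3.61%, 12.6% and 0.0173% in KO replicates 1, 2 and 3, so KO replicate 3 almost lacks the tissue's defining transcripts. Summed T cell markers were 67.4 to 188 CPM in WT and 488 to 1173 CPM in KO, B cell markers 143 to 434 against 1527 to 2234 CPM, and fat cell markers 968 to 2148 against 11721 to 15562 CPM. Levels are in CPM, each gene's share of its library's counts after TMM scaling. In such bulk tissue fewer cells of a type and less RNA per cell cannot be told apart.

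Of the 39 kinesin genes tested, 21 were lower and 2 higher in KO (edgeR adjusted p under 0.05), which is 59.0% called, near the 53.0% called among all 17652 genes tested. The split was unlike that of all genes: 53.8% of kinesins were lower and 5.13% higher, against 25.0% and 28.0% of all genes. Scaling by library totals alone moved the median log2 ratio of all genes from 0.02 to 0.42. It gave 13 lower and 9 higher kinesins, against 2166 lower and 7476 higher of the 17652 genes tested. Of 13 mitotic kinesins 12 fell and 0 rose, and the median log2 ratio was -1.0, and 0 rose also at an unadjusted p under 0.05 (passed by 60.3% of all genes in either direction) and by DESeq2 and limma-voom. Of 15 transport kinesins 6 fell and 0 rose by edgeR (1 rose at an unadjusted p under 0.05, and 0 by DESeq2 and limma-voom), with a median of -0.03. KO values lay below all WT values in 12 mitotic and 6 transport kinesins (33.7% of all genes), and above them in 0 mitotic and 1 transport kinesin (34.4% of all genes). The summed level of mitotic kinesins was 402, 366 and 366 CPM in WT replicates 1, 2 and 3 and 162, 186 and 199 CPM in KO. Transport kinesins summed to 840, 874 and 888 CPM in WT and 772, 805 and 751 CPM in KO. For every 100 counts of transport kinesins there were 47.8, 41.9 and 41.2 counts of mitotic kinesins in WT and 21.0, 23.1 and 26.5 in KO, a ratio that no scaling changes and whose groups did not overlap.

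**Figure D2:**
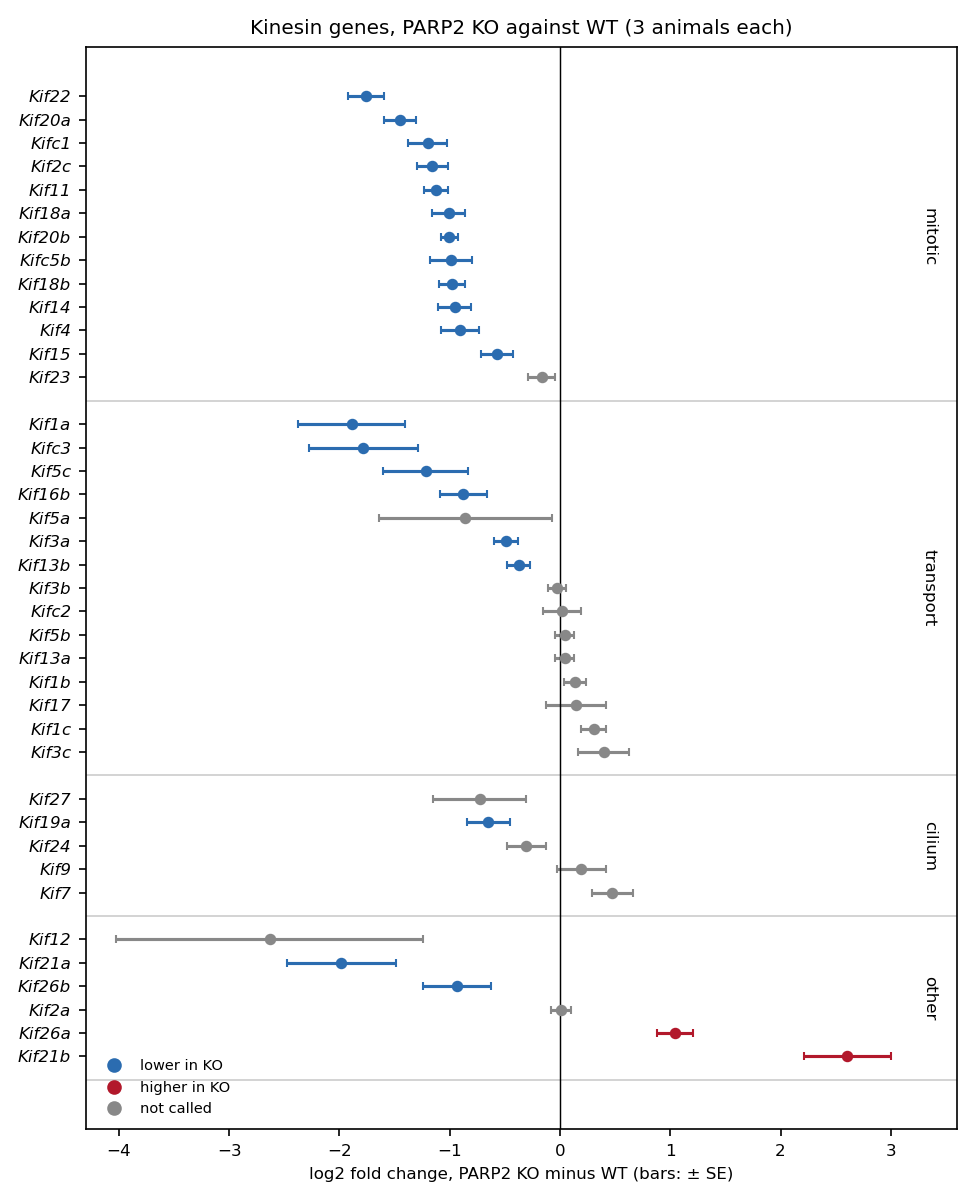
Log2 fold change of 39 kinesin genes, PARP2 KO minus WT, with SE bars (3 animals per group), by role; blue is lower, red higher and grey not past the edgeR threshold. The mitotic genes lie between -1.76 and -0.17, and the transport genes spread from -1.89 to 0.40.

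Motors that set up the spindle fell, Kif11 and Kifc1 to under 0.5 of their WT level. Kif11 (chromosome 19, 37376403 to 37421859, GRCm38), the kinesin-5 that pushes the poles apart, had 87.9, 76.7 and 81.5 CPM in WT and 32.9, 40.3 and 39.8 CPM in KO. All KO values lay below all WT values, and the log2 ratio was -1.12 (SE 0.11, edgeR adjusted p = 0.00201). Kifc1, the minus-end motor that gathers spindle poles, had 11.1, 12.6 and 12.4 CPM in WT and 4.22, 5.43 and 6.06 CPM in KO (log2 ratio -1.20, SE 0.178, edgeR adjusted p = 0.00367). Kifc5b fell as well, by 0.99 on the log2 scale (edgeR adjusted p = 0.0072, or 0.0725 with library totals only), but 39.7% of the 50-base stretches of Kifc1 transcripts occur in another gene, nearly all in Kifc5b, so the counts of the 2 genes are uncertain apart. Kif15, the kinesin-12 that can take over from Kif11, fell less, from 27.3, 22.7 and 22.8 CPM to 14.5, 15.2 and 19.3 CPM (log2 ratio -0.57, SE 0.148, edgeR adjusted p = 0.0195). That call ended without WT replicate 1, without KO replicate 1 and with library totals alone (adjusted p = 0.0601, 0.0617 and 0.462).

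Motors that act on chromosomes and microtubule ends fell as well. Kif22 (chromosome 7, 127027729 to 127042471), a chromokinesin that pushes chromosome arms toward the spindle equator, had 51.4, 45.0 and 43.1 CPM in WT. In KO it had 10.8, 15.7 and 14.6 CPM, and its log2 ratio of -1.76 (SE 0.165, edgeR adjusted p = 0.00201) was the lowest of the mitotic kinesins. The other chromokinesin gene, Kif4, had 23.9, 20.5 and 20.2 CPM in WT and 9.06, 11.6 and 13.8 CPM in KO (log2 ratio -0.91, edgeR adjusted p = 0.00757, or 0.0607 with library totals only). The microtubule depolymerase gene Kif2c, whose product corrects faulty chromosome attachments, fell from 19.9 ± 0.964 to 8.91 ± 1.31 CPM (SD, n = 3 each). Kif18a, which damps chromosome movement at the equator, fell from 14.7 ± 1.58 to 7.32 ± 0.891 CPM and Kif18b, which shortens astral microtubules, from 15.7 ± 0.736 to 8.0 ± 0.666 CPM. Their log2 ratios were -1.16, -1.01 and -0.98 (edgeR adjusted p = 0.00253, 0.00367 and 0.00252). Kif2a, the related depolymerase that non-dividing cells also use and that was counted among the others, had 42.3, 37.7 and 39.1 CPM in WT and 40.6, 36.9 and 42.0 CPM in KO. These groups overlapped, and the 95% interval of the log2 ratio ran from -0.21 to 0.22.

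Motors of the midzone and of cytokinesis did not move as 1 block. Kif20a, which brings the Aurora B complex to the midzone, had 54.8, 54.3 and 50.3 CPM in WT and 15.4, 21.5 and 21.3 CPM in KO (log2 ratio -1.45, SE 0.146, edgeR adjusted p = 0.00209). Kif20a exons overlap those of Cdc23 on the opposite strand over 1271 bases, so part of its reads is uncertain. Its relative Kif20b, needed late in cytokinesis, went from 43.1, 40.7 and 45.4 CPM to 21.7, 21.6 and 21.2 CPM. The 3 KO values of Kif20b had an SD of only 0.246 CPM (log2 ratio -1.0, SE 0.08, edgeR adjusted p = 0.00201). Kif14, which works with citron kinase at the cleavage furrow, fell from 15.6 ± 2.24 to 8.06 ± 0.818 CPM (mean ± SD, n = 3 each), with edgeR adjusted p = 0.00441.

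Kif23 (chromosome 9, 61915905 to 61946774), the motor of the centralspindlin complex that bundles midzone microtubules, was the exception. It had 27.6, 23.6 and 23.9 CPM in WT and 21.9, 19.9 and 25.2 CPM in KO, and the groups overlapped. Its log2 ratio was -0.17 (95% interval -0.46 to 0.13, edgeR adjusted p = 0.282), or 0.25 with library totals only. The interval does not reach the values of Kif20a and Kif20b. The log2 ratio of Kif20a to Kif23 counts, which no scaling changes, was 1.09 ± 0.108 in WT and -0.21 ± 0.307 in KO (SD, 3 libraries a group; exact permutation p = 0.10, two-sided, which is the lowest value possible with these group sizes). The log2 ratio of Kif22 to Kif23 went from 0.89 ± 0.0418 to -0.72 ± 0.345 and that of Kif11 to Kif23 from 1.71 ± 0.0493 to 0.76 ± 0.228. These belong to 5 ratios, chosen after the values were seen, and each had an exact permutation p of 0.10, as raw and as Benjamini-Hochberg adjusted value. Kif23 carries both the CHR and the NF-Y box letters near its start. Its binding partner Racgap1, the other subunit of centralspindlin, fell by 0.78 on the log2 scale (SE 0.105, edgeR adjusted p = 0.00304), and Ect2, the exchange factor that centralspindlin recruits, by 1.64 (SE 0.144, edgeR adjusted p = 0.00201).

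**Figure D3:**
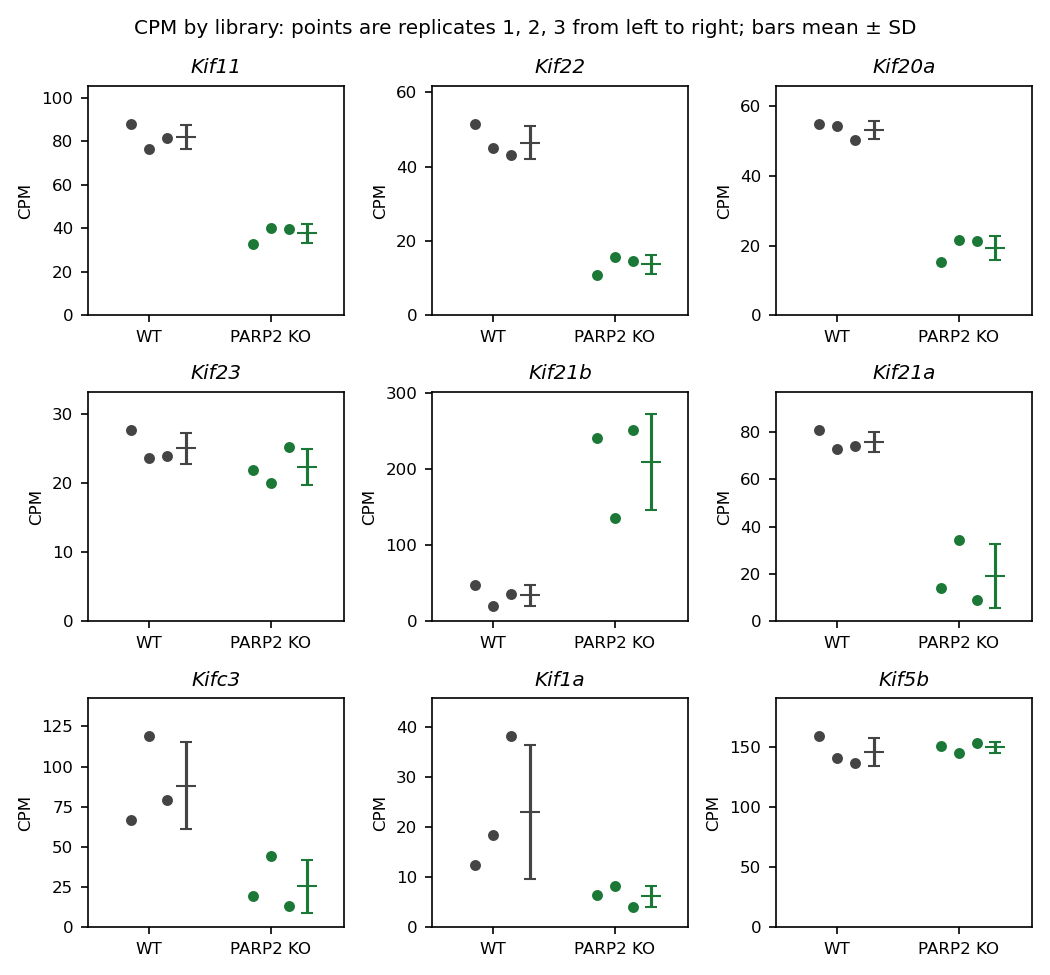
CPM of 9 kinesin genes in each library, on linear axes from 0; points are replicates 1, 2 and 3 from left to right and bars the mean ± SD of 3 animals. Kif11, Kif22 and Kif20a separate by genotype with little spread, Kif23 and Kif5b overlap, Kif21b is higher in KO, and Kif21a, Kifc3 and Kif1a are lower with wide spread.

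The partners of the mitotic motors moved with them. Of 30 genes for spindle and midzone partners 27 fell and 1 rose (90.0% and 3.33%, against 25.0% and 28.0% of all genes), and the median log2 ratio was -1.17 against 0.02 for all genes tested. Plk1, the kinase that docks on Kif20a, fell from 41.8 to 11.3 CPM, and Birc5, a subunit of the Aurora B complex, from 55.1 to 16.5 CPM (edgeR adjusted p = 0.00201 for both). Espl1, the protease that parts sister chromatids, went from 38.9 to 16.4 CPM (edgeR adjusted p = 0.00201). Numa1, which tethers dynein at spindle poles and is present in nuclei of resting cells too, rose by 0.45 (SE 0.124, edgeR adjusted p = 0.0248). Cenpe, a kinesin gene that lacks a Kif name, fell from 41.5 to 24.8 CPM (log2 ratio -0.74, SE 0.111, edgeR adjusted p = 0.0037), nearer to 0 than in 11 of the 13 mitotic Kif genes, a difference that was not tested. Of 21 general proliferation genes 19 fell (90.5%) and 0 rose (0 also at an unadjusted p under 0.05), with a median of -1.08. Ccna2, the cyclin of S phase and early mitosis, went from 143 to 41.6 CPM.

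Of the transport kinesins, Kif5b, Kif3b, Kif13a, Kif1b and Kif1c did not pass the test. Kif5b (chromosome 18), the heavy chain of conventional kinesin in most tissues, had 159, 141 and 137 CPM in WT and 151, 145 and 153 CPM in KO, with a 95% interval of the log2 ratio from -0.17 to 0.25. Kif3b gave an interval from -0.23 to 0.17 and Kif13a, which sorts endosomes, from -0.17 to 0.25. Kif1b, a carrier of mitochondria and vesicle precursors, gave -0.11 to 0.38. Kif1c, a motor of vesicle and RNA transport, had 120, 133 and 136 CPM in WT and 145, 154 and 181 CPM in KO, without overlap, and missed the threshold (log2 ratio 0.30, edgeR adjusted p = 0.0579). It passed, with adjusted p = 0.0498, when only genes of at least 1 CPM were tested. Scaled by library totals alone, Kif1b, Kif1c, Kif3b, Kif5b and Kif13a all passed as higher, as did 7476 of all 17652 genes tested. Kif3a, the partner of Kif3b in the heterotrimeric kinesin-2 that drives transport into cilia, fell from 19.1, 18.1 and 20.6 CPM to 13.1, 14.9 and 13.2 CPM (log2 ratio -0.49, SE 0.107, edgeR adjusted p = 0.0112). That call ended without KO replicate 1 (adjusted p = 0.0525) and with library totals only (adjusted p = 0.576). Kifap3, the accessory subunit of the same motor, had 28.7 CPM in WT and 28.1 CPM in KO and did not pass.

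Per kilobase of exon, the scale on which genes can be compared, Kif5b (18.2 ± 1.47 CPM per kb, SD, n = 3), Kif1c (17.8 ± 1.18) and Kifc3 (16.7 ± 5.15) had the highest WT levels of all 41 genes. These 3 differed by less than the spread of Kifc3 between libraries, so their order is not resolved. Kif20a (12.2 ± 0.568), Kif11 (11.0 ± 0.754) and Kif22 (9.48 ± 0.89) led the mitotic kinesins in WT. In KO the highest were Kif1c (21.9 CPM per kb), Kif5b (18.8) and Kif21b (17.2), while Kif11 stood at 5.05, Kif20a at 4.47 and Kif22 at 2.79. Kif21b moved from rank 22 in WT to rank 3 in KO.

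**Figure D4:**
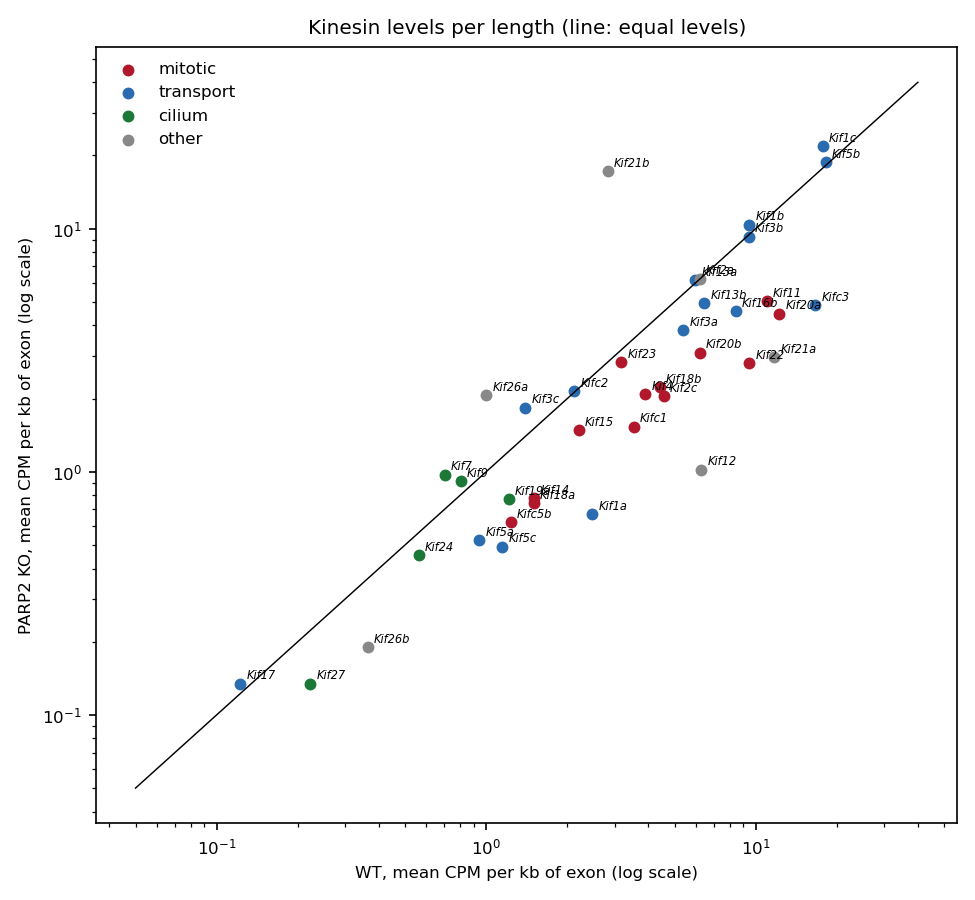
Mean level of 39 kinesin genes per kb of exon in WT (x axis) and PARP2 KO (y axis), both on log scales, coloured by role; the line marks equal levels. Mitotic genes lie under the line, with Kif23 nearest to it, and Kif21b lies farthest above.

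In 5 further kinesins, and in some others named below, the KO animals came in the same order. Kifc3, a minus-end motor of epithelial cells that acts at cell junctions and in apical transport, had 66.6, 119 and 79.2 CPM in WT and 19.7, 44.2 and 13.1 CPM in KO (log2 ratio -1.78, SE 0.497, edgeR adjusted p = 0.0274). Kif21a, which restrains microtubule growth at the cell edge, had 80.7, 72.6 and 74.0 CPM in WT and 14.1, 34.5 and 9.05 CPM in KO (log2 ratio -1.98, SE 0.495, edgeR adjusted p = 0.0193). Kif12, known from kidney and bile duct epithelium, had 15.3, 27.7 and 21.2 CPM in WT and 1.43, 8.99 and 0 CPM in KO. The 0 of KO replicate 3 allows up to 0.077 CPM (3 counts), counting error only. Its log2 ratio of -2.63 (SE 1.40) did not pass (edgeR adjusted p = 0.157), although the groups did not overlap. Kif16b, a motor of early endosomes, went from 80.6, 83.3 and 65.2 CPM to 42.1, 52.5 and 30.1 CPM (edgeR adjusted p = 0.0165). Kif13b, a related motor, went from 90.0, 79.7 and 81.4 CPM to 64.9, 71.3 and 57.4 CPM (edgeR adjusted p = 0.0249). All 5 genes had KO replicate 2 highest and KO replicate 3 lowest within KO, the same order as the acinar share of counts (12.6%, 3.61% and 0.0173% in replicates 2, 1 and 3) and as summed duct markers (663, 146 and 17.9 CPM, against 1452 to 2367 CPM in WT). Summed islet markers (671, 274 and 13.0 CPM in KO replicates 2, 1 and 3) and motile cilium markers (8.87, 6.89 and 4.75 CPM) had that order too. So did macrophage markers (1417, 1351 and 1135 CPM) and fibroblast markers (4004, 3648 and 2845 CPM). The part of any of these cell types in the result was not tested. The order is not particular to these 5 genes. It was also that of Kif1a, Kif5c and Kif19a, which were lower, and of Kif17 and Kif27, which did not pass. Kif13a had it too, with overlapping groups (47.7, 54.3 and 47.4 CPM in KO replicates 1, 2 and 3). The mitotic Kif11 did not follow that order, with 32.9, 40.3 and 39.8 CPM in KO replicates 1, 2 and 3.

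The calls of this set, which was put together after its values were seen, rest on few animals. Without KO replicate 1 the adjusted p was 0.0961 for Kifc3, 0.0723 for Kif21a, 0.064 for Kif16b and 0.0764 for Kif13b. In that setting 0 of 15 transport kinesins were lower (5 at an unadjusted p under 0.05), against 2543 of all 18002 genes tested. Without WT replicate 2 all 4 calls ended too (adjusted p = 0.084, 0.0551, 0.0532 and 0.0509). Without WT replicate 1 the adjusted p was 0.0561 for Kif21a, 0.0509 for Kif16b and 0.0787 for Kif13b. Without WT replicate 3 it was 0.0613 for Kifc3, 0.0515 for Kif21a and 0.0513 for Kif13b. Without a count filter it was 0.083 for Kifc3 and 0.0614 for Kif21a. Without KO replicate 2, in contrast, Kif12 passed (log2 ratio -4.92, adjusted p = 0.0327). Without KO replicate 3, the library with almost no acinar transcripts, 12 of 13 mitotic and 3 of 15 transport kinesins were lower. Of all 17988 genes tested in that setting 3663 were lower. Kif13b lost its call there (adjusted p = 0.0569).

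Kinesins typical of neurons were high in 1 WT animal. Kif1a, the carrier of synaptic vesicle precursors, had 12.5, 18.5 and 38.2 CPM in WT and 6.41, 8.27 and 4.01 CPM in KO (log2 ratio -1.89, SE 0.484, edgeR adjusted p = 0.0203). Kif5c, a neuronal heavy chain of conventional kinesin, had 6.73, 4.64 and 13.2 CPM in WT and 3.49, 3.69 and 3.37 CPM in KO (log2 ratio -1.22, edgeR adjusted p = 0.0379). Kif5a, the other neuronal heavy chain, had 2.31, 2.36 and 15.1 CPM in WT and 3.73, 3.16 and 4.06 CPM in KO, so its KO values lie above 2 of the 3 WT values (edgeR adjusted p = 0.379). WT replicate 3 was the highest library for all 3 genes. Summed markers of neurons were 18.6, 19.7 and 236 CPM in WT and 28.7, 21.8 and 27.5 CPM in KO, and islet markers 1578, 3662 and 1927 CPM in WT and 274, 671 and 13.0 CPM in KO. Their part in the result was not tested. Without WT replicate 3 the Kif5c call ended (log2 ratio -0.70, adjusted p = 0.0647) and Kif5a turned to 0.63 (adjusted p = 0.0782), while Kif1a kept its call. Kif5c kept it, of all libraries, only without WT replicate 2, with adjusted p from 0.0599 to 0.117 for the others. The Kif1a call ended without KO replicate 1 or 3 (adjusted p = 0.0727 and 0.0512). Kif3c, found in neurons and fibroblasts, was highest in WT replicate 3 as well (8.45, 8.30 and 14.2 CPM in WT, 13.0 to 14.1 CPM in KO), and it passed as higher only without that library (log2 ratio 0.69, adjusted p = 0.0144). Of its 7406 exon bases 3205 overlap genes on the opposite strand.

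**Figure D5:**
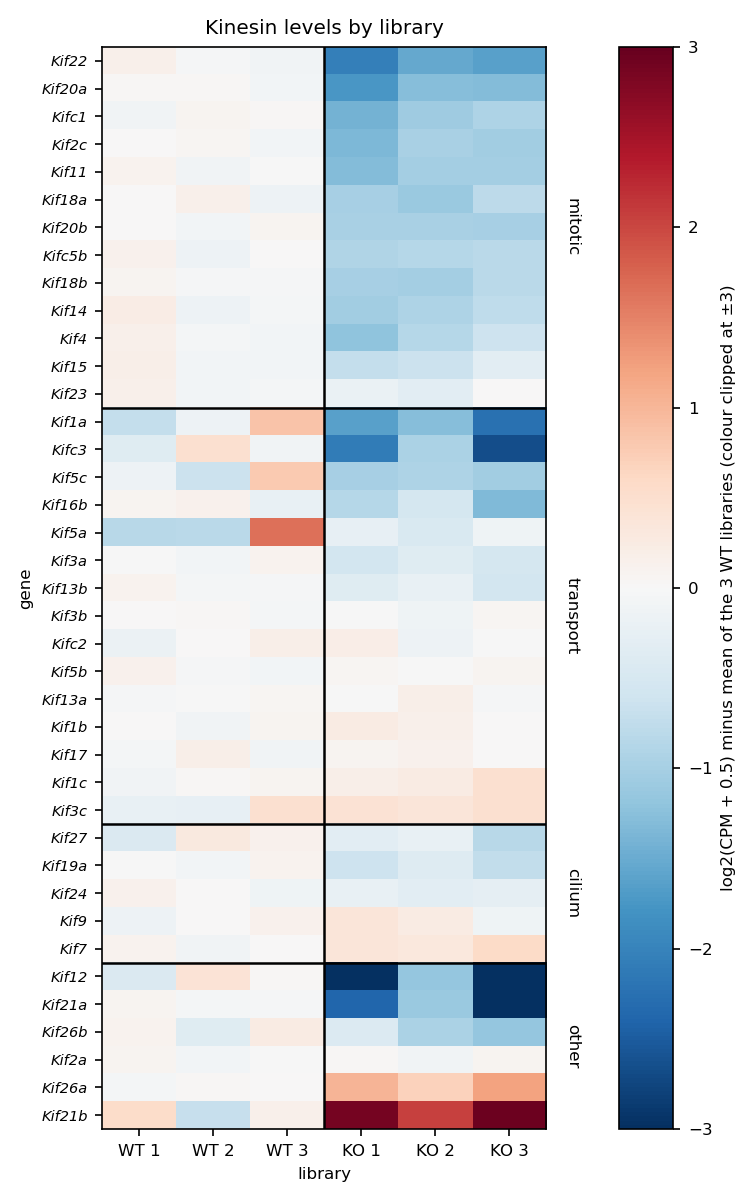
Level of 39 kinesin genes in the 6 libraries as log2(CPM + 0.5) minus the mean of the 3 WT libraries, with colour clipped at 3 in both directions. Mitotic genes are evenly lower in the 3 KO libraries except Kif23, Kif5a and Kif5c stand out in WT 3, and Kif12 and Kif21a are lowest in KO 3.

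Kif21b (chromosome 1, 136131389 to 136177998) rose most of all kinesins. The protein slows microtubule growth and is known from neurons and lymphocytes, where it shapes the microtubules of the immune synapse in T cells. It had 47.4, 19.9 and 36.0 CPM in WT and 241, 136 and 251 CPM in KO, 6.09 times the WT mean (log2 ratio 2.61, SE 0.396, edgeR adjusted p = 0.0044). No KO library overlapped WT, and the call held in all 13 alternatives (adjusted p at most 0.0192). Within KO the order of the libraries was that of summed T cell markers, which were 935, 488 and 1173 CPM in replicates 1, 2 and 3, and in WT both were lowest in replicate 2. The order is not particular to Kif21b. Within KO it was also that of Kif26a, which rose, and of the mitotic Kif18a and Kif18b, which fell. Kif5b, Kif3b, Kif3c, Kif5a, Kif7, Kif2a and Kif23, which did not pass, had it as well. This order is also the reverse of the order of the acinar share. Summed endothelium markers, with 7 of 8 genes higher, had the same order as T cell markers (887, 810 and 930 CPM in KO replicates 1, 2 and 3). Summed B cell markers had another order (1527, 1616 and 2234 CPM in KO replicates 1, 2 and 3). The part of T cells or of endothelium in the result was not tested. Its close relative Kif21a moved the other way, as given above.

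Kif26a, an atypical kinesin that binds microtubules without walking, was the other gene that rose, from 6.65, 7.13 and 6.99 CPM to 14.5, 11.6 and 16.7 CPM (log2 ratio 1.04, SE 0.164, edgeR adjusted p = 0.00428), a call that held in all 13 alternatives. Its relative Kif26b had 5.71, 4.0 and 6.30 CPM in WT and 3.81, 2.46 and 2.08 CPM in KO (log2 ratio -0.94, edgeR adjusted p = 0.042). That fall lost its call without WT replicates 1 or 3, without KO replicates 2 or 3 and with library totals only (adjusted p from 0.0892 to 0.214).

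Ciliary kinesins were low throughout. Of 5 tested 1 fell, a share under the 25.0% of all genes: Kif19a, which trims ciliary microtubules, went from 4.89, 4.60 and 5.30 CPM to 3.03, 3.66 and 2.75 CPM (log2 ratio -0.65, edgeR adjusted p = 0.0311). Its call ended in 7 of 13 alternatives, among them each left-out library other than KO replicate 2. Kif7, a regulator of Hedgehog signalling at the tip of the cilium, had 3.48, 2.92 and 3.24 CPM in WT and 4.27, 4.13 and 4.99 CPM in KO, without overlap (edgeR adjusted p = 0.072). Kif24, Kif27 and Kif9 did not pass. Summed markers of motile cilia were 11.2 to 17.5 CPM in WT and 4.75 to 8.87 CPM in KO. Of 24 genes of intraflagellar transport, the traffic that kinesin-2 drives, 11 fell and 2 rose (45.8% and 8.33%, against 25.0% and 28.0% of all genes), and the median was -0.34. Ift20, which also works at the Golgi, fell from 60.8 to 29.8 CPM and Ift140 rose from 21.1 to 46.5 CPM (edgeR adjusted p = 0.00303 and 0.00238).

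Genes on the cargo side of the transport motors were called no more often than all genes. Of 26 light chain, adaptor and linker genes 5 fell and 5 rose (19.2% each way, against 25.0% lower and 28.0% higher of all genes), and the median log2 ratio was -0.02. Of the light chains of conventional kinesin, Klc3 fell from 14.9 to 4.16 CPM (edgeR adjusted p = 0.039), and Klc1, Klc2 and Klc4 did not pass. Hook1, an adaptor of endosome transport, fell from 153 to 40.9 CPM (log2 ratio -1.91, edgeR adjusted p = 0.00814), and the scaffold gene Mapk8ip2 from 3.40 to 0.406 CPM (edgeR adjusted p = 0.0141). Spag9, a scaffold that links kinesin and dynein to cargo, rose from 135 to 197 CPM (edgeR adjusted p = 0.00706) and Madd, an exchange factor that ties Kif1a and Kif1b to their vesicles, from 51.8 to 88.5 CPM (edgeR adjusted p = 0.0162). For the opposing motor, cytoplasmic dynein with dynactin, 4 of 23 genes fell and 2 rose (17.4% and 8.70%, below the shares of all genes), and the median was -0.08. The dynactin subunit gene Actr1b fell from 107 to 73.6 CPM (edgeR adjusted p = 0.00321), and the dynein regulator gene Pafah1b1 rose from 158 to 202 CPM (edgeR adjusted p = 0.0188).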

How the data were processed

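The authors deposited whole-number read counts per gene, not normalised, and a table of log2 values. The deposited log2 values equal log2(count / DESeq2 size factor + 1) within 5.2e-14, so only the counts were tested. The build GRCm38 and the tools STAR 2.5.3a, DESeq2 1.28.1 and FastQC 0.11.5 are named, per the submitters' processing notes. How reads were counted, with which strand setting and annotation, is not given in the sources used here, so overlapping genes are uncertain. Differences were tested with edgeR 4.0.16 (quasi-likelihood F-test, robust, TMM scaling, default expression filter, genotype only) in R 4.3.3, on all 29721 genes, of which 17652 passed the filter. P-values were Benjamini-Hochberg adjusted over these, threshold 0.05. SE is the log2 fold change over the square root of F, and 95% intervals use the test's degrees of freedom. Alternatives were DESeq2 1.42.0, limma 3.58.1 voom, other scalings and filters, and leaving out each library. The test was run on simulated counts in which few genes changed, evenly up and down. In these data many more genes were called, so that run does not check the scaling. Exon lengths and overlaps come from GENCODE vM21, whose positions equal those deposited for all 41 kinesin genes. The members and lists were chosen with earlier results of these data known. Every kinesin gene could be named, with values by library for called genes and for the highest per length in each role, and up to 4 partner genes of smallest p per list and direction; other genes named were chosen after their values were seen. Summed levels are given for the acinar, duct, islet, neuron, T cell, B cell, fat cell and motile cilium markers. Markers of Schwann cells, endothelium, macrophages and fibroblasts summed to 182, 354, 1139 and 4655 CPM in WT and 225, 876, 1301 and 3499 CPM in KO. Replicate pairs differed beyond sampling noise, with chi-square per degree of freedom of 29.1 to 461.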

Additional observations from a re-analysis of the deposited data

How the results depend on the processing

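Across 13 alternatives (3 scalings, 2 filters, 2 other tests and 6 left-out libraries) the count of lowered mitotic kinesins stayed between 9 and 12 of 13. With library totals as the only scaling 13 kinesins were lower and 9 higher, against 2166 lower and 7476 higher of all 17652 genes tested. In that setting 3 transport kinesins were lower and 5 higher, and the medians were -0.59 for mitotic and 0.38 for transport kinesins. The difference of the 2 medians was then -0.98, as in the reported fit. Testing only genes of at least 1 CPM gave 1 transport kinesin higher, against 4511 of all 15084 genes tested, and a transport median of -0.19. With 1 library left out, 12 to 20 kinesins were lower, 0 to 5 transport kinesins were lower and 0 or 1 higher. Of all genes tested in those settings (17988 to 18308), 2543 to 5032 were lower and 3602 to 5125 higher.

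Counts assigned to Myc, in which transgene and endogenous reads were not told apart, were lower (log2 fold change -1.55, edgeR adjusted p = 0.0366). That call ended with library totals (-1.22) and without a count filter (-1.53), and with 1 library left out its log2 fold change ran from -2.18 to -1.21, with the call kept only without KO replicate 2. Of 505 gene results under an alternative 435 kept direction and side of the threshold, 45 lost a call, 10 gained one and 15 changed sign. With library totals Kif3b turned to 0.38, Kif24 to 0.10, Kif23 to 0.25 and Kif13b to 0.018. Kif2a turned to -0.015 with DESeq2 size factors and to -0.0011 by DESeq2. With 1 library left out the log2 fold change ran from -0.075 to 0.11 for Kifc2, -0.0096 to 0.10 for Kif5b, -0.030 to 0.090 for Kif13a, -0.039 to 0.054 for Kif2a, -0.060 to 0.021 for Kif3b and -1.27 to 0.63 for Kif5a. The causes were not tested.

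Depth limited Kif6 and Kif28, which had too few counts to be tested. No paired analysis was possible because the labels give animals no shared numbers.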
